A study of Mus musculus with 35 samples.

Results

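Nqo1, Srxn1, Txnrd1, Txndc9, Prdx1 and Cat encode enzymes and helper proteins that reduce quinones, thioredoxin and peroxides, and their transcripts were followed in primary mouse embryonic fibroblasts (MEFs) exposed to methyl methanesulfonate (MMS), an alkylating agent that adds methyl groups to DNA and other molecules. A gene was represented by the Affymetrix probe sets that carry its symbol and no other, with the probe set of the highest mean over all arrays as its value and the others as a check. By this rule 5 of the 6 genes were measured, with 13 probe sets in all (1 for Nqo1, 4 for Srxn1, 3 each for Txnrd1 and Txndc9, and 2 for Cat). All 5 probe sets of Prdx1 are also annotated with Gm21399, so no value is given for that gene. The 5 genes stand among 18194 genes with a probe set of their own, of which 14135 passed a filter on low signal, and all 5 passed it.

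The cells came from C57BL6/J embryos of day 15.5, were expanded for 2 passages at 5% O2 and are primary cultures that can carry over cells of other tissues. At 24 h after plating the medium was exchanged for fresh medium with MMS at 40 μg/mL (MMS-treated) or for fresh medium without it (control). The groups were MMS-treated cells at 1, 8, 24 and 72 h and control cells at 0, 1, 8, 24 and 72 h, each with 4 arrays apart from MMS at 72 h with 3, which makes 35 arrays. The fourth replicate of MMS at 72 h was not analysed here. The series calls its replicates biological without saying whether they were separate cultures, so p-values reflect only how far these samples vary, and precision is limited by how few arrays there are. Values are the deposited log2 signals after the authors' normalization, and differences are MMS-treated minus time-matched control cells, with adjusted p-values from limma over all 14135 genes and a call at an adjusted p under 0.05.

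Several of these proteins belong to reducing pathways that draw on NADPH or NADH. NQO1 passes a pair of electrons to quinones at once and so avoids the semiquinone radical. Thioredoxin reductase TXNRD1 keeps thioredoxin reduced, thioredoxin in turn restores peroxiredoxins such as PRDX1 after they have reduced a peroxide, and sulfiredoxin (SRXN1) rescues peroxiredoxins whose cysteine was overoxidised. Catalase breaks down hydrogen peroxide in peroxisomes without NADPH as a donor, and TXNDC9 is a thioredoxin-like protein best known as a partner of the CCT chaperonin, which folds actin and tubulin. Nqo1, Srxn1, Txnrd1 and Prdx1 are textbook targets of NRF2, a factor released from KEAP1 by electrophiles and oxidants that binds antioxidant response elements (ARE), whereas Cat is known as a target of forkhead factors of the FOXO family.

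Nqo1, Srxn1, Txnrd1, Txndc9 and Cat were all higher in MMS-treated cells at 8 and 24 h. Of these genes only Srxn1 and Txnrd1 have a window that holds the ARE core, so their promoters are shown. They are windows of 300 bases, 250 before and 50 after a transcription start, from RefSeq (mouse build GRCm38.p6), written 5′ to 3′ on the strand of the gene, with capitals for matches to TGACNNNGC (the ARE core) or TGANTCA (the AP-1 site) on either strand.
Srxn1 promoter, chr2:152105274-152105573, plus strand: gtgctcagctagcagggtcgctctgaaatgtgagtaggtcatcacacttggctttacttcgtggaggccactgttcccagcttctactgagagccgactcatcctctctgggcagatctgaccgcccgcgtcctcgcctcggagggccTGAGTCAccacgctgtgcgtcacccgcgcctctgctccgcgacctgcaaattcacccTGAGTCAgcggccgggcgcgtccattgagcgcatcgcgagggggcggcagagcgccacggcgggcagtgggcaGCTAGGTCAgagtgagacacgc
Txnrd1 promoter 2, chr10:82858956-82859255, plus strand: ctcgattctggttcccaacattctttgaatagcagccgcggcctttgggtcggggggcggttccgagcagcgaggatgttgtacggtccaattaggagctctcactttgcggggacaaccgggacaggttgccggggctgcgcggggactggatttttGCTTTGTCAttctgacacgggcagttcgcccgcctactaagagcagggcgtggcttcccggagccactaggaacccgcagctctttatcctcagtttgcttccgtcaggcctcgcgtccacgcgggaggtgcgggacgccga

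In the Srxn1 window, TGANTCA was matched at -102 to -96 and at -45 to -39 from the start, both times as TGAGTCA, and TGACNNNGC was matched on the minus strand at +29 to +37, with no overlap between the motifs. Txnrd1 has 3 windows, and the second held TGACNNNGC on the minus strand at -92 to -84, whereas its windows 1 and 3 held neither motif. No match to either motif, or to the forkhead site TGTTTAC, was found in the windows of Nqo1, Txndc9 and Cat. The window of Prdx1, which has no expression value here, held TGACNNNGC on the minus strand at -133 to -125 and TGANTCA at -237 to -231 and at -131 to -125, the last overlapping the ARE core. Among all 32851 windows of 27025 genes, 12.4% held TGACNNNGC, 7.81% held TGANTCA (0.46% held it at least 2 times) and 3.65% held TGTTTAC. A match describes letters only and does not show binding, and a window without one says nothing about sites elsewhere.

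Several arrays stood apart. Replicate 3 of MMS at 1, 24 and 72 h and of control at 0 h held transcripts of intestinal epithelium, with 13, 16, 11 and 17 of 18 markers over 1 log2 unit higher than on the rest of its group. Replicate 3 of control at 1 h had 7 and replicate 4 of control at 24 h had 5 such markers. The 8 h arrays of both treatments held macrophage transcripts, the mean of 13 markers being 7.56 to 7.82 in MMS-treated and 8.10 to 8.24 in control cells at 8 h, against 4.62 to 5.90 on all other arrays. At 24 h that mean was 5.10 to 5.44 in MMS-treated and 4.62 to 4.73 in control cells, with 3 of the 13 markers called higher, none lower and a median difference of -0.11. Of all genes tested, 25% were called higher and 19.4% lower at that time. At 8 h 1 of the 13 markers was called higher and 7 lower in MMS-treated cells, beside 28.7% and 25% of all genes tested. All 12 fibroblast markers passed the filter on low signal, with group means of 10.55 to 12.26, lowest in MMS-treated cells at 24 h. In MMS-treated cells 9 of the 12 were called lower at 8 h, 11 lower and 1 higher at 24 h, and 4 lower at 72 h. Of all genes tested, 25%, 19.4% and 10.4% were called lower at these times. Hepatocyte and erythroid markers were measured by 6 and 2 genes only. The hepatocyte mean was highest, at 8.94, on replicate 3 of control at 0 h, then at 6.97 and 6.01 on replicate 3 of MMS at 24 and 1 h. These arrays also held intestinal transcripts. The part of these transcripts in the results below was not tested beyond the values given beside each result. In such bulk samples, fewer cells of a type and less RNA per cell cannot be told apart.

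Srxn1 was the only one of the 5 genes called at 1 h, all 5 were higher in MMS-treated cells at 8 and 24 h, and Txndc9 alone kept most of its 24 h difference to 72 h. The share of all genes tested that were called higher was 0.361% at 1 h, 28.7% at 8 h, 25% at 24 h and 10.1% at 72 h, and of the 5 genes 1, 5, 5 and 5 were called higher at these times, with none lower. Every MMS array lay above every control array for 1, 5, 5 and 4 of the 5 genes, against 4.69, 25, 23.8 and 14.1% of all genes tested. The median log2 difference of the 5 genes was 0.03 at 1 h, 1.15 at 8 h, 1.43 at 24 h and 0.50 at 72 h, beside medians over all genes of -0.0031, 0.056, 0.013 and -0.0092.

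**Figure D1:**
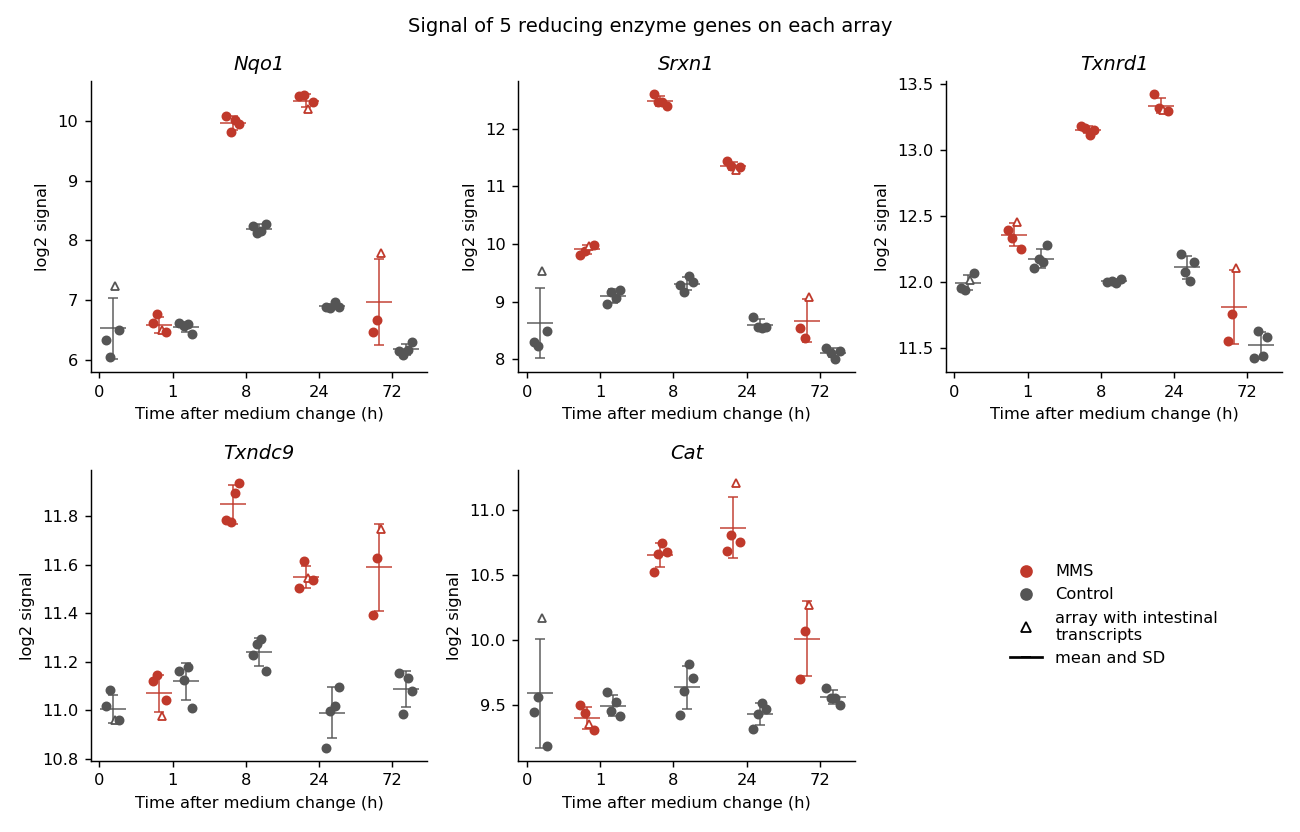
Log2 signal (vertical axis) of Nqo1, Srxn1, Txnrd1, Txndc9 and Cat by time after the medium change in hours (horizontal axis), with 1 point per array, MMS-treated cells in red and control cells in grey, lines for the mean and SD of 4 arrays (3 for MMS at 72 h), and open triangles for the 4 arrays with intestinal transcripts. The MMS arrays at 8 and 24 h lie above all control arrays of the same time in all 5 panels, and the triangle at MMS 72 h is the highest of its group in each.

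Nqo1, the quinone reductase, had the largest difference of the 5 genes at 24 h and also differed between times in control cells. Its log2 signal was 6.63, 6.77, 6.51 and 6.46 on the MMS arrays at 1 h, against 6.62, 6.56, 6.60 and 6.44 on the control arrays. At 8 h it was 10.08, 9.82, 10.01 and 9.94 in MMS-treated cells, against 8.24, 8.12, 8.16 and 8.27 in control cells. At 24 h it was 10.41, 10.42, 10.19 and 10.31 in MMS-treated cells, against 6.89, 6.87, 6.97 and 6.88 in control cells. The groups overlapped at 1 h and were separated by more than 1 log2 unit at 8 and 24 h. The difference was 0.03 ± 0.19 at 1 h (SE, adjusted p = 0.995), 1.76 ± 0.19 at 8 h (3.40-fold, adjusted p = 2.5e-09) and 3.43 ± 0.19 at 24 h (10.8-fold, adjusted p = 2.3e-15). At 24 h this was the ninth largest rise among the 14135 genes. The effect grew by 1.67 between 8 and 24 h (adjusted p = 6.2e-06), and Nqo1 was the only one of the 5 genes whose change between these times passed the test, as did 45.6% of all genes in either direction. Over that interval the mean was 9.96 and then 10.33 in MMS-treated cells, whereas it was 8.20 and then 6.90 in control cells, so most of the widening lay on the control side. The control arrays at 8 h also held macrophage transcripts, with a marker mean of 8.10 to 8.24, against 4.62 to 4.73 at 24 h. The part of these transcripts in the Nqo1 levels was not tested.

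At 72 h Nqo1 was at 6.46, 6.67 and 7.80 in MMS-treated cells, against 6.15, 6.09, 6.18 and 6.31 in control cells. All 3 MMS arrays lay above the control arrays, the highest being replicate 3, which holds intestinal transcripts. The difference of 0.80 ± 0.20 (1.74-fold, adjusted p = 0.0044) became 0.38 without that array (adjusted p = 0.13), and 0.38 with an adjusted p of 0.0054 without all 4 arrays with intestinal transcripts.

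Srxn1, the sulfiredoxin gene, had the largest difference of the 5 at 1 and 8 h. Its log2 signal was 9.81, 9.88, 9.96 and 9.99 on the MMS arrays at 1 h, against 8.95, 9.17, 9.06 and 9.20 on the control arrays. The groups did not overlap, and the difference of 0.81 ± 0.17 (1.76-fold, adjusted p = 0.015) was the thirteenth largest rise of all genes tested, among 51 called higher. The call was lost (adjusted p of 0.050 to 0.083) without replicate 3 or 4 of MMS or replicate 1 or 3 of control at 1 h, with values of 0.76 to 0.80, and without the 8 h arrays (0.81, adjusted p = 0.059). At 8 h Srxn1 was at 12.60, 12.46, 12.46 and 12.39 in MMS-treated cells, against 9.29, 9.17, 9.44 and 9.34 in control cells. At 24 h it was at 11.45, 11.35, 11.29 and 11.34 in MMS-treated cells, against 8.74, 8.55, 8.55 and 8.56 in control cells. Both times the groups were more than 2 log2 units apart. The difference was 3.17 ± 0.17 at 8 h (8.98-fold, adjusted p = 4.6e-16), the tenth largest rise of all genes, and 2.76 ± 0.17 at 24 h (6.75-fold, adjusted p = 2.0e-14). The change of -0.41 between 8 and 24 h did not pass the test (95% interval -0.89 to 0.07, adjusted p = 0.16), but passed it without the 4 arrays with intestinal transcripts (-0.39, adjusted p = 0.0038).

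At 72 h Srxn1 was at 8.53, 8.38 and 9.09 in MMS-treated cells, against 8.19, 8.10, 8.01 and 8.13 in control cells, again with replicate 3 the highest. The difference was 0.56 ± 0.18 (1.47-fold, adjusted p = 0.025). It was 0.35 without MMS replicate 3 (adjusted p = 0.26), and 0.35 with an adjusted p of 0.0058 without all 4 arrays with intestinal transcripts. Without control 72 h replicate 3 the adjusted p was 0.063.

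Txnrd1, the cytosolic thioredoxin reductase, was higher in MMS-treated cells at 8 and 24 h by similar amounts. At 1 h it was at 12.39, 12.34, 12.45 and 12.25 in MMS-treated cells, against 12.11, 12.17, 12.15 and 12.28 in control cells, a difference of 0.18 that was not called (adjusted p = 0.52). At 8 h its log2 signal was 13.18, 13.17, 13.12 and 13.15 on the MMS arrays, against 12.00, 12.00, 11.99 and 12.03 on the control arrays. At 24 h it was 13.42, 13.32, 13.31 and 13.30 in MMS-treated cells, against 12.21, 12.08, 12.01 and 12.15 in control cells. At both times the groups were about 1 log2 unit apart, with a difference of 1.15 ± 0.07 at 8 h (2.22-fold, adjusted p = 5.8e-14) and 1.22 ± 0.07 at 24 h (2.33-fold, adjusted p = 2.3e-14). The change between these times was 0.07, with a 95% interval of -0.14 to 0.29. At 72 h the values were 11.56, 11.76 and 12.11 in MMS-treated cells, against 11.43, 11.63, 11.44 and 11.58 in control cells. These groups overlapped, and the difference of 0.29 ± 0.08 (1.22-fold, adjusted p = 0.0095) was 0.14 without MMS replicate 3 (adjusted p = 0.23), and 0.14 with the same adjusted p without all 4 arrays with intestinal transcripts.

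Cat, the catalase gene, was higher from 8 h on. At 1 h it was at 9.31 to 9.51 in MMS-treated cells, against 9.42 to 9.60 in control cells (difference -0.10, adjusted p = 0.97). At 8 h its log2 signal was 10.53, 10.66, 10.75 and 10.68 on the MMS arrays, against 9.43, 9.61, 9.82 and 9.71 on the control arrays. At 24 h it was 10.69, 10.81, 11.21 and 10.76 in MMS-treated cells, against 9.32, 9.43, 9.52 and 9.47 in control cells. The groups were apart at both times, and the highest MMS value at 24 h was again replicate 3. The difference was 1.01 ± 0.14 at 8 h (2.02-fold, adjusted p = 2.2e-07) and 1.43 ± 0.14 at 24 h (2.70-fold, adjusted p = 4.7e-10). The change of 0.42 between 8 and 24 h did not pass the test (95% interval 0.02 to 0.81, adjusted p = 0.080). At 72 h Cat was at 9.70, 10.07 and 10.27 in MMS-treated cells, against 9.64, 9.56, 9.56 and 9.50 in control cells, a difference of 0.45 ± 0.15 (1.37-fold, adjusted p = 0.028). The call at 72 h was lost without MMS replicate 2 or 3 or control replicate 2, 3 or 4 (adjusted p of 0.051 to 0.21), the lowest value being 0.32 without MMS replicate 3. Without all 4 arrays with intestinal transcripts the value was 0.32 (adjusted p = 0.031).

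Txndc9, the thioredoxin-like partner of the chaperonin, had the smallest differences of the 5 genes at 8 and 24 h by the probe set used. Its other probe sets gave 0.96 and 1.31 at 8 h, against 1.15 for Txnrd1 and 1.01 for Cat by the probe sets used. The 1.31 came from a dim probe set, with a mean of 5.30 over all arrays, against 11.27 for the probe set used. At 1 h it was at 10.98 to 11.14 in MMS-treated cells, against 11.01 to 11.18 in control cells (difference -0.05, adjusted p = 0.97). At 8 h its log2 signal was 11.78, 11.78, 11.90 and 11.94 on the MMS arrays, against 11.23, 11.27, 11.29 and 11.16 on the control arrays. At 24 h it was 11.51, 11.62, 11.54 and 11.54 in MMS-treated cells, against 10.85, 11.00, 11.02 and 11.10 in control cells. At 72 h it was 11.39, 11.63 and 11.75 in MMS-treated cells, against 11.15, 10.98, 11.13 and 11.08 in control cells. The groups did not overlap at any of the 3 times. The difference was 0.61 ± 0.06 at 8 h (1.52-fold, adjusted p = 2.6e-09), 0.56 ± 0.06 at 24 h (1.48-fold, adjusted p = 2.0e-08) and 0.50 ± 0.07 at 72 h (1.42-fold, adjusted p = 2.1e-06). Without MMS 72 h replicate 3 the last was 0.42 and still called (adjusted p = 9.9e-05).

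**Figure D2:**
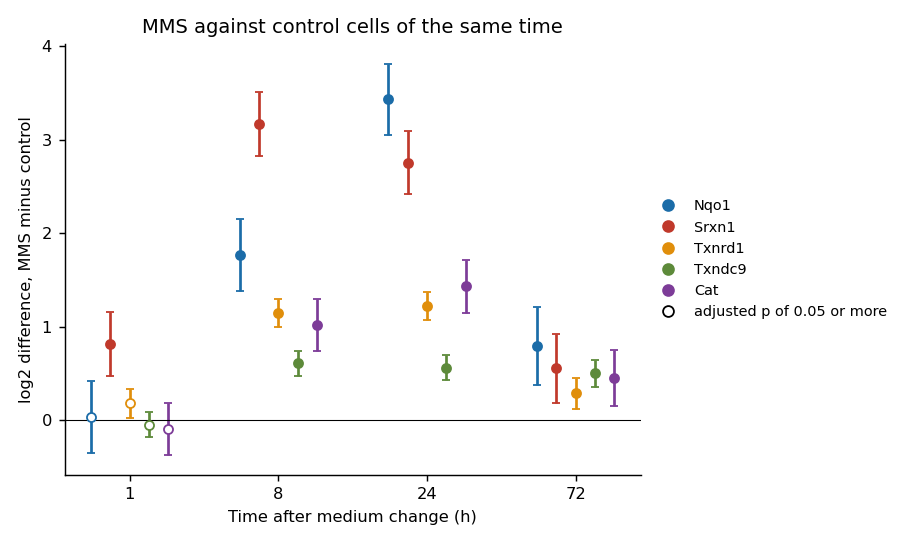
Log2 difference between MMS-treated cells and their time-matched controls (vertical axis) at 1, 8, 24 and 72 h (horizontal axis) for the 5 genes, with 95% confidence intervals from limma and open circles where the adjusted p was 0.05 or more. Srxn1 leads at 1 and 8 h and Nqo1 at 24 h, and Txndc9 lies at 0.61, 0.56 and 0.50 from 8 h on.

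The genes parted after 24 h. Between 24 and 72 h the MMS effect became smaller, with a change of -2.64 for Nqo1 (adjusted p = 1.0e-08), -2.20 for Srxn1 (adjusted p = 3.0e-08), -0.94 for Txnrd1 (adjusted p = 7.5e-08) and -0.98 for Cat (adjusted p = 0.00032). Such a fall passed the test for 16.5% of all genes. The effect on Txndc9 changed by -0.06, with a 95% interval of -0.26 to 0.14 (adjusted p = 0.72). At 72 h, 23.2% of the 24 h log2 difference was left for Nqo1, 20.2% for Srxn1, 23.5% for Txnrd1, 31.4% for Cat and 89.4% for Txndc9. Without MMS 72 h replicate 3 these shares were 11.2% for Nqo1, 12.5% for Srxn1, 11.1% for Txnrd1, 22.5% for Cat and 75.4% for Txndc9. Between 1 and 8 h the effect grew for all 5 genes, by 2.36 for Srxn1, 1.73 for Nqo1, 1.11 for Cat, 0.97 for Txnrd1 and 0.66 for Txndc9 (each with an adjusted p of at most 2.4e-05), a rise that passed the test for 21.3% of all genes.

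The levels of the groups were ordered differently for each gene, as a description over the arrays. For Nqo1 the MMS 24 h and 8 h groups came first and second without overlap, the control 8 h group came next and apart from all others, and MMS at 72 h overlapped control at 24 h. For Srxn1 the order was MMS at 8, 24 and 1 h, each apart from the next, and control at 8 h followed and overlapped control at 1 h. For Txnrd1, MMS at 24 h and at 8 h stood apart, and the remaining 7 groups formed a chain in which each overlapped its neighbour. For Cat the MMS 24 h and 8 h arrays overlapped each other, as did MMS at 72 h and control at 8 h, and for Txndc9 MMS at 8 h stood first, followed by MMS at 72 h and at 24 h, which overlapped.

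Control cells also differed between times, as compared with the control arrays at 0 h. The 4 comparisons share these arrays, of which replicate 3, with intestinal transcripts, was above the mean of the other 3 by 0.95 for Nqo1, 1.19 for Srxn1 and 0.78 for Cat. At 8 h, where 35.8% of all genes were called higher, 3 of the 5 genes were called higher. Nqo1 was at 8.12 to 8.27 on the control 8 h arrays, against 6.33, 6.05, 7.24 and 6.50 at 0 h, a difference of 1.67 ± 0.19 (3.18-fold, adjusted p = 8.2e-09) with no overlap. Txndc9 was 0.24 ± 0.06 higher at 8 h (adjusted p = 0.0027), and Srxn1 was 0.67 ± 0.17 higher (adjusted p = 0.00092) although its values of 9.17 to 9.44 overlapped the 8.29, 8.23, 9.53 and 8.48 at 0 h. All 13 macrophage markers were higher in control cells at 8 h than at 0 h too, with a median difference of 3.66.

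At 72 h, where 16.3% of all genes were called lower, Txnrd1 was at 11.43 to 11.63 in control cells, against 11.94 to 12.06 at 0 h, a difference of -0.47 ± 0.07 (adjusted p = 7.1e-06). Srxn1 was lower by 0.52 at 72 h (adjusted p = 0.013), but by 0.23 without control 0 h replicate 3 (adjusted p = 0.094). Without all 4 arrays with intestinal transcripts it was lower by 0.23 and still called (adjusted p = 0.024). None of the 5 genes was called at 1 h or 24 h, where 11.6% and 11.2% of all genes were called in either direction. Without control 0 h replicate 3, Srxn1 was called higher at 1 h (0.76, adjusted p = 5.5e-06), and Nqo1 was called higher at 24 h (0.61, adjusted p = 0.018). Without all 4 arrays with intestinal transcripts, Nqo1 was also called higher at 1 h (0.26, adjusted p = 0.048) and Cat at 8 h (0.24, adjusted p = 0.029). Other probe sets were called higher in control cells at 1 h, namely 1424512_a_at (0.31, adjusted p = 0.012) and 1436108_at (0.73, adjusted p = 0.0027) of Txndc9 and 1425351_at (0.48, adjusted p = 0.044) of Srxn1, and so was the mean of the probe sets of Txndc9 (0.38, adjusted p = 0.00032). At 72 h 1436108_at was called lower (-0.51, adjusted p = 0.016), whereas the probe set used for Txndc9 gave 0.08 and was not called. Nqo1 was not called at 72 h (-0.35, adjusted p = 0.15). Without single arrays it ranged from -0.51 to -0.11, and 1 of 8 such fits called it (adjusted p = 0.036).

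**Figure D3:**
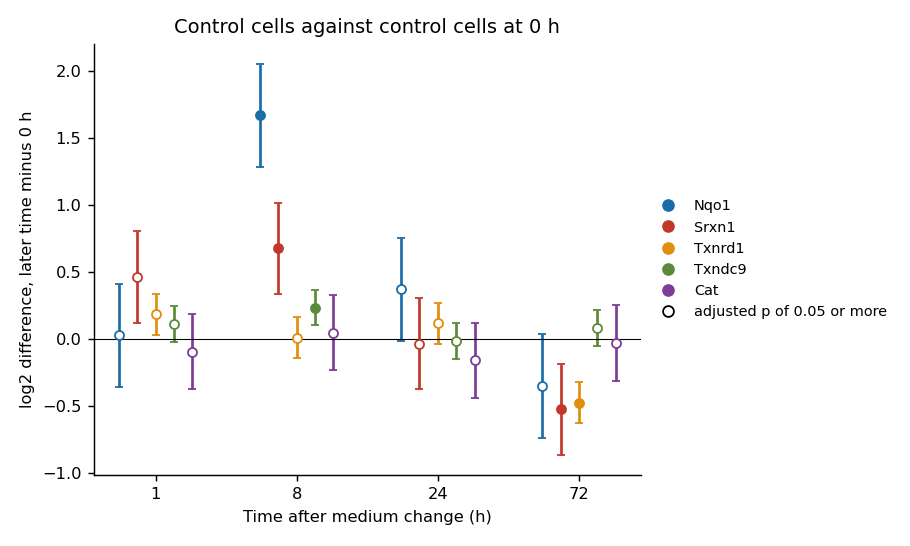
Log2 difference between control cells at 1, 8, 24 and 72 h and control cells at 0 h (vertical axis) by time in hours (horizontal axis) for the 5 genes, with 95% confidence intervals from limma and open circles where the adjusted p was 0.05 or more. The largest value is the 1.67 of Nqo1 at 8 h, and Txnrd1 and Srxn1 were called lower at 72 h.

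The other probe sets were fitted in the same model, adjusted over all probe sets with 1 symbol, and all of them were called higher in MMS-treated cells at 8 and 24 h. For Srxn1, 1425351_at and 1451680_at gave 0.71 and 0.75 at 1 h, 2.80 and 2.77 at 8 h, 2.71 and 2.74 at 24 h, and 0.75 and 0.57 at 72 h, all called. The dimmest probe set of Srxn1, 1419942_at, gave 0.26 at 1 h (adjusted p = 0.65), 1.77 at 8 h, 0.95 at 24 h and -0.04 at 72 h (adjusted p = 0.90). Its effect fell between 8 and 24 h (-0.82, adjusted p = 0.00053), whereas the change was -0.09 for 1425351_at (adjusted p = 0.79) and -0.03 for 1451680_at (adjusted p = 0.94). Between control cells at 8 h and at 0 h the probe sets of Srxn1 differed in sign, with 0.43 for 1419942_at, -0.29 for 1425351_at and -0.23 for 1451680_at. For Cat, 1416430_at gave 1.12 at 8 h, 1.44 at 24 h and 0.19 at 72 h, the last not called (adjusted p = 0.57). For Txndc9, 1424512_a_at gave 0.96, 0.53 and 0.45 at 8, 24 and 72 h, all called. The dimmest, 1436108_at, gave 1.31, 0.53 and 0.80, all called, with a control mean of only 4.33 at 72 h. For both, the fall of the effect between 8 and 24 h passed the test (-0.44, adjusted p = 0.0029, and -0.78, adjusted p = 0.0076), whereas no change between 24 and 72 h did.

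The probe sets of Txnrd1 gave the same direction after MMS but not the same course. In 1424486_a_at the effect was 1.35 at 8 h, 1.62 at 24 h and 0.71 at 72 h, and in 1424487_x_at it was 1.34, 1.62 and 0.52, the last not called (adjusted p = 0.055). In both, the 8 h arrays had lower means than the arrays of the same treatment at 1 and 24 h and than the control arrays at 0 h. The mean of 1424486_a_at at 8 h was 7.03 ± 0.30 in MMS-treated and 5.68 ± 0.38 in control cells, against 8.14 ± 0.14 in control cells at 0 h (SD, n = 4 each). The mean of 1424487_x_at at 8 h was 6.62 ± 0.33 in MMS-treated and 5.29 ± 0.29 in control cells, against 7.03 ± 0.14 at 0 h. Between control cells at 8 h and at 0 h they fell by 2.46 (adjusted p = 5.4e-12) and 1.74 (adjusted p = 6.2e-10), while the brightest probe set changed by 0.01 (95% interval -0.14 to 0.16).

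**Figure D4:**
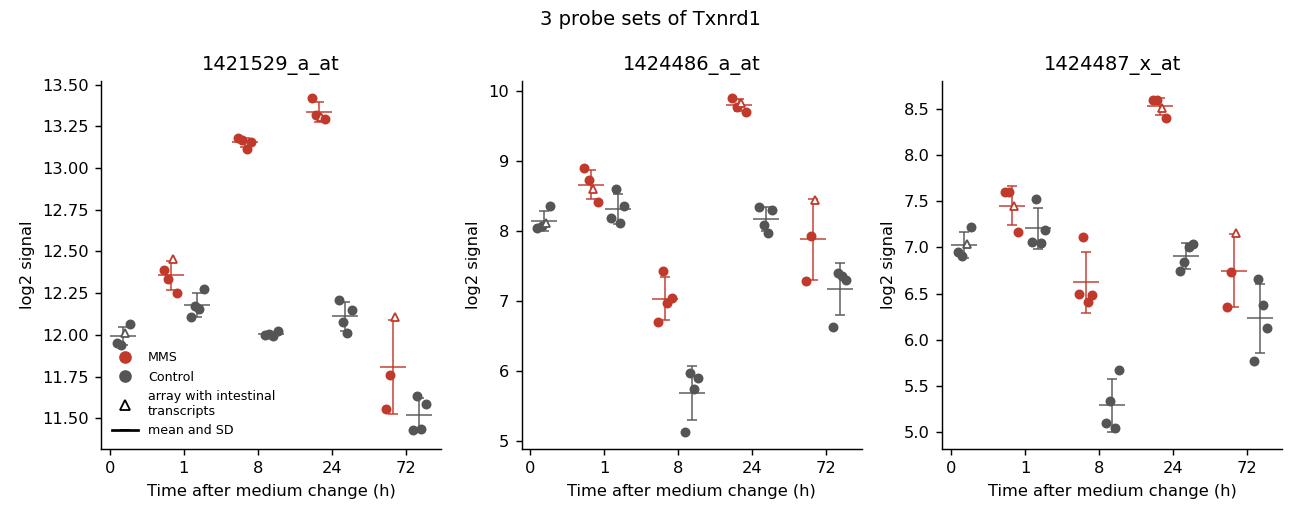
Log2 signal (vertical axis) of the 3 probe sets of Txnrd1 by time in hours (horizontal axis), with 1 point per array, MMS-treated cells in red and control cells in grey, lines for mean and SD, and open triangles for arrays with intestinal transcripts. In 1424486_a_at and 1424487_x_at the 8 h means of both treatments lie below their means at 1 and 24 h, whereas the control 8 h arrays of 1421529_a_at lie at 11.99 to 12.03.

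Related genes were described with lists of neighbouring pathways that leave out the 6 genes above. Over all genes tested the share called lower was 0.0283% at 1 h, 25% at 8 h, 19.4% at 24 h and 10.4% at 72 h, beside the 28.7%, 25% and 10.1% called higher at 8, 24 and 72 h. At 24 h the chaperonin genes (62.5%) and the quinone and carbonyl reductases (60%) had larger shares of genes called higher than the other 3 lists. Of the 25 quinone and carbonyl reductases tested, 7 were called higher and 6 lower at 8 h, 15 higher and 5 lower at 24 h, with 6 higher and 3 lower by 72 h. The shares at 8 h, 28% higher and 24% lower, were near those of all genes. Their median difference at 24 h was 0.35, beside 0.01 over all genes. Ptgr1, which reduces prostaglandins and reactive alkenals, was 1.48 higher at 8 h (adjusted p = 2.1e-10) and 2.43 higher at 24 h (5.39-fold, adjusted p = 6.0e-15). Cbr3, a carbonyl reductase, was 2.33 higher at 8 h (5.03-fold, adjusted p = 2.9e-21) and 2.16 higher at 24 h (adjusted p = 1.3e-19). Dcxr, a reductase of dicarbonyls and L-xylulose, was not called at 8 h (-0.13, adjusted p = 0.18) and was 1.63 higher at 24 h (3.10-fold, adjusted p = 5.75e-16). Cbr2, another carbonyl reductase, was lower at 24 h, at 6.61 to 7.34 in MMS-treated cells, against 8.67 to 8.86 in control cells (-1.76, adjusted p = 9.4e-14). It was not called at 8 h (-0.14, adjusted p = 0.31). There it was at 5.96 to 6.41 in MMS-treated and 6.22 to 6.36 in control cells, against 9.04 to 9.50 in control cells at 0 h.

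The list of the thioredoxin system also took in thioredoxin-like proteins, glutaredoxins and Gsr. Of its 21 genes tested, 6 were called higher and 5 lower at 8 h, 8 higher and 4 lower at 24 h, with 4 higher and 3 lower by 72 h. The shares were 28.6% higher and 23.8% lower at 8 h, near those of all genes, and 38.1% higher and 19% lower at 24 h. With arrays centred on their median 3 were called lower at 8 h and 7 at 24 h. Gsr, the glutathione reductase, was at 9.34 to 9.48 in MMS-treated cells at 8 h, against 8.47 to 8.61 in control cells, and at 8.70 to 9.09 in MMS-treated cells at 24 h, against 7.25 to 7.58 in control cells. Its difference was 1.49 ± 0.13 at 24 h (2.81-fold, adjusted p = 3.1e-11), and its control arrays were also higher at 8 h than the 7.39 to 8.31 at 0 h. Txnl4b, a thioredoxin-like protein linked to splicing, was 1.00 higher at 8 h (adjusted p = 3.8e-13). Glrx3, a glutaredoxin, was lower at 8 h (-0.27, adjusted p = 0.022) and higher at 24 h (0.62, adjusted p = 4.8e-06). Its 8 h arrays overlapped, with a dim 5.07 to 5.17 in MMS-treated cells, against 5.13 to 5.54 in control cells. Nxn, nucleoredoxin, was 1.12 lower at 8 h on the log2 scale (-1.12, adjusted p = 8.8e-14). The substrate of the reductase, Txn1, was not called at any time, with differences of 0.13, 0.16, 0.33 and 0.37 at 1, 8, 24 and 72 h, and neither was the mitochondrial reductase Txnrd2. Txn1, Txnrd2 and the peroxiredoxins were named after their values had been seen.

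Among 19 genes for peroxide and superoxide removal, 2 were called higher and 6 lower at 8 h, 6 and 6 at 24 h, with 6 higher and 4 lower by 72 h. These were 10.5% and 31.6% at 8 h, and 31.6% in each direction at 24 h. When the probe sets of each gene were averaged, 4 were called higher at 8 h. Sesn2, a stress-induced sestrin, was the only listed gene called at 1 h (0.72, adjusted p = 0.031) and was 1.06 higher at 8 h (adjusted p = 1.2e-06). Its 1 h arrays overlapped, with 9.22, 9.47, 9.28 and 8.53 in MMS-treated cells, against 8.32, 8.14, 8.57 and 8.59 in control cells, and the call was lost without the 4 arrays with intestinal transcripts, with arrays centred on their median, in a model of only the groups compared, without the 8 h arrays, and without any 1 of replicates 1, 2 and 3 of MMS or of control at 1 h. Msrb3, a methionine sulfoxide reductase, was lower at 8 h (-1.23, adjusted p = 5.6e-15) and 24 h (-1.15, adjusted p = 4.1e-14). Msra, another, was lower at 8 h (-0.56, adjusted p = 0.047) and 24 h (-0.82, adjusted p = 0.0053). Its 24 h arrays overlapped, with 6.06, 5.86, 7.06 and 5.91 in MMS-treated cells, against 6.79 to 7.24 in control cells. The value of 7.06 is that of replicate 3, which holds intestinal transcripts. Sod3, the extracellular superoxide dismutase, was lower at 24 h (-0.91, adjusted p = 1.5e-07) and 72 h (-1.01, adjusted p = 3.4e-07). Of the other peroxiredoxins, Prdx2, Prdx3 and Prdx4 were picked after their values had been seen. Prdx5 and Prdx6 were listed too, but their values are not given here. Prdx2 was 0.17 higher at 24 h (adjusted p = 0.0059) and 0.21 higher at 72 h (adjusted p = 0.0041). Prdx3 was 0.40 higher at 24 h (adjusted p = 8.3e-08) and 0.29 higher at 72 h (adjusted p = 0.00019). Prdx4 differed by -0.08 at 24 h (adjusted p = 0.34) and was lower at 72 h (-0.20, adjusted p = 0.031). None of these 3 was called at 1 or 8 h.

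The peroxisome, in which catalase works, was described by 27 genes tested, of which 7 were called higher and 10 lower at 8 h, 11 higher and 2 lower at 24 h, with 2 higher and 1 lower by 72 h. The shares were 25.9% higher and 37% lower at 8 h, against 40.7% higher and 7.41% lower at 24 h. With arrays centred on their median, with array weights or without the 4 arrays with intestinal transcripts, 4 were called lower at 24 h. Pex13, part of the import machinery, was 1.18 higher at 8 h (2.27-fold, adjusted p = 2.7e-14) and 0.53 higher at 24 h. Acox3, an acyl-CoA oxidase that makes hydrogen peroxide, was 1.13 higher at 24 h (2.19-fold, adjusted p = 1.1e-07). Pex11a, linked to peroxisome division, was 0.86 higher at 8 h (adjusted p = 0.0013), and Agps, an enzyme of ether lipid synthesis, was lower at 8 h (-0.97, adjusted p = 3.7e-13). Among 16 genes of the CCT chaperonin and its co-chaperones, which TXNDC9 binds or works beside, 6 were called higher and 3 lower at 8 h, 10 higher and 1 lower at 24 h, with 1 higher and 0 lower by 72 h. That is 37.5% higher with 18.8% lower at 8 h, and 62.5% with 6.25% at 24 h. The largest of these differences at 24 h were 0.45 for Cct4, 0.40 for Cct3, 0.36 for Cct5 and 0.32 for Cct8, all subunits of the ring (adjusted p of 0.00013 or less). With arrays centred on their median, which subtracted 0.08 from the difference of every gene at 24 h, 5 rather than 10 were called higher. With the same centring the 24 h calls over all genes were 2736 higher and 3376 lower, against 3540 higher and 2745 lower as deposited.

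**Figure D5:**
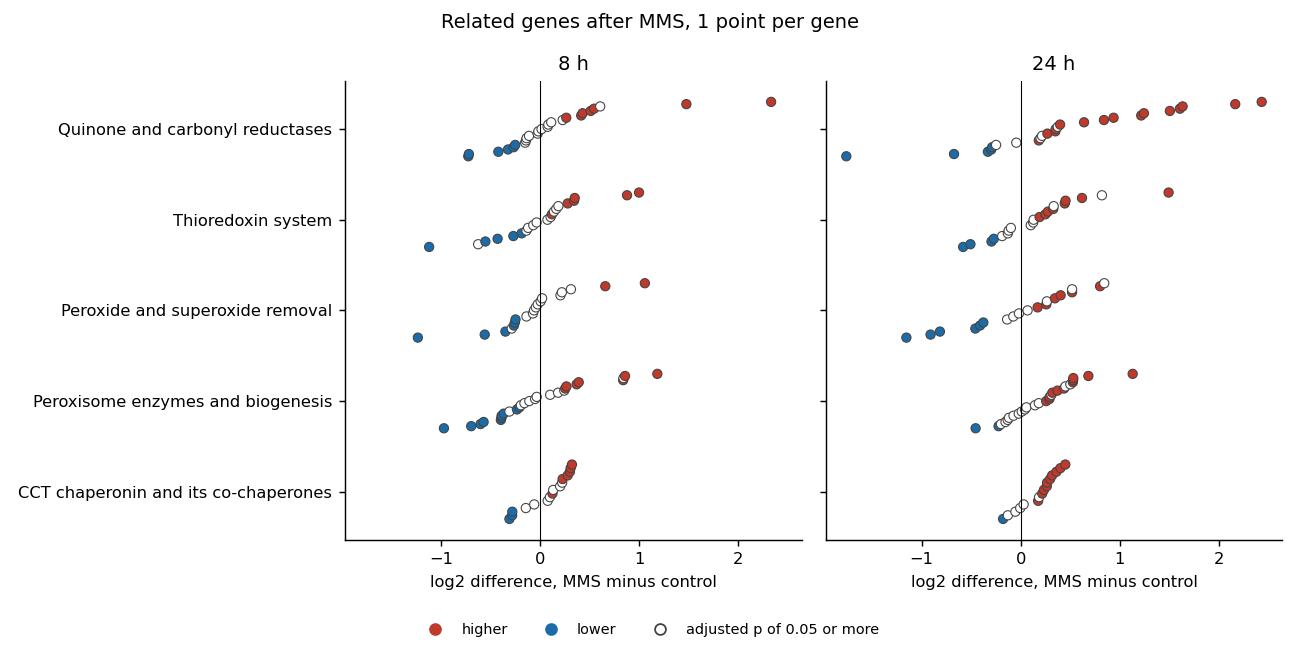
Log2 difference between MMS-treated and control cells (horizontal axis) at 8 h (left) and 24 h (right) for the genes of 5 lists (vertical axis), with 1 point per gene, red for called higher, blue for called lower and white for an adjusted p of 0.05 or more. At 24 h 15 of 25 quinone and carbonyl reductases and 10 of 16 chaperonin genes are red, those of the chaperonin all within 0.5 log2 units of 0.

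Across the 9 group means, used as a description with no test, the 5 genes resembled each other to different degrees. Pearson's r was 0.94 between Srxn1 and Txnrd1, 0.91 between Nqo1 and Cat, and lowest, at 0.62, between Txnrd1 and Txndc9. The genes with the most similar group means were Blvrb (r = 0.990), Taldo1 (0.989) and Cdk5rap1 (0.986) for Nqo1, and Dus3l (0.987), Pak1ip1 (0.978) and 2310057M21Rik (0.971) for Srxn1. For Txnrd1 they were Eif2b1 (0.977), Rae1 (0.974) and Utp6 (0.970), for Txndc9 Dennd2c (0.978), Usp20 (0.966) and Atg7 (0.960), and for Cat Nap1l2 (0.985), Map1lc3b (0.983) and Fam83h (0.981). All correlations rest on 9 points that share the same arrays.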

How the data were processed

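Total RNA of primary MEFs was hybridised to 35 Affymetrix arrays, which fall into 9 groups. The authors deposited log2 values of 45101 probe sets, normalized by RMA (version and genome build not given in the sources used here). RMA sets all arrays to a common distribution, so a shift shared by most genes would not show. Symbols come from the platform annotation: 34958 probe sets carry 1 symbol, 932 several and 9211 none, and only the first were used. A gene was tested if any group mean was at or above the 40th percentile of the values (log2 4.40). The test was that of limma 3.58.1, run in R 4.3.3, in 1 model of all arrays, with 26 residual degrees of freedom, empirical Bayes moderation, two-sided p-values and Benjamini-Hochberg adjustment over 14135 genes within each contrast. Contrasts compared MMS-treated with control cells at each time, the changes of this effect between times, and control cells against 0 h.

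The members and lists were chosen with earlier results of these data known. Besides the 6 genes, the text names up to 4 called genes per list with the largest difference at 8 or 24 h and the 3 genes with the most similar group means, and also Txn1, Txnrd2, Prdx2, Prdx3 and Prdx4, which were added after their values had been seen. Alternatives changed the normalization, filter, probe set, model, block, weights and arrays. The scripts were tested on simulated data. Promoter windows are those of RefSeq, build GRCm38.p6.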

Additional observations from a re-analysis of the deposited data

Results flagged for a closer look

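The effect of MMS differed between times. Between 1 and 8 h it grew for Nqo1 by 1.73, Srxn1 by 2.36, Txnrd1 by 0.97, Txndc9 by 0.66 and Cat by 1.11 on the log2 scale, each past the threshold in limma's test of the change itself. Between 8 and 24 h it grew for Nqo1 by 1.67. Between 24 and 72 h it changed by -2.64 for Nqo1, -2.20 for Srxn1, -0.94 for Txnrd1 and -0.98 for Cat.

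Of 40 groups of 4 arrays examined for a value far from the others, 1 stood out: Srxn1 in control cells at 24 h, where replicate 1 was at 8.74 and the other 3 at 8.55 to 8.56, so that its gap to the nearest value took 0.945 of the range of the group. Chance gives such a value in about 1 of 20 groups.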

How the results depend on the processing

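At 8 and 24 h all 5 genes kept their direction and their call under every alternative run: repeated quantile normalization, arrays centred on their median, no filter or a filter at the 60th percentile, the mean of a gene's probe sets or each probe set alone, only the groups compared in the model, a replicate block, array weights, and leaving out each array, the 4 arrays with intestinal transcripts or (for 24 h) the 8 h arrays. Of their calls between MMS-treated and control cells, those that changed were that of Srxn1 at 1 h and those of all but Txndc9 at 72 h. In control cells against 0 h, Srxn1 lost its call at 8 h with the mean of probe sets (0.15, adjusted p = 0.27) and with only the groups compared (0.67, adjusted p = 0.068), and at 72 h with only the groups compared (-0.52, adjusted p = 0.19). The number of arrays, 4 or 3 per group, limits the precision, and the cause of these changes was not tested.

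At 72 h, the mean of probe sets gave 0.32 for Cat (adjusted p = 0.16), a model of only the groups compared gave 0.80 for Nqo1 (adjusted p = 0.071) and 0.29 for Txnrd1 (adjusted p = 0.16), and leaving out the 4 arrays with intestinal transcripts gave 0.14 for Txnrd1. Without the 8 h arrays Srxn1 at 1 h was 0.81 (adjusted p = 0.059). Single probe sets gave 0.19 for Cat, 0.52 for Txnrd1 and -0.042 for Srxn1 at 72 h, and 0.26 for Srxn1 and 0.047 for Txndc9 at 1 h. With array weights 457 genes (327 higher) were called at 1 h and 5617 at 72 h, against 55 and 2895.

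Leaving out 1 array at a time gave 20 to 56 calls at 1 h. It gave -0.024 to 0.077 for Nqo1 and 0.76 to 0.85 for Srxn1 at 1 h, and 0.38 to 1.05 for Nqo1, 0.35 to 0.70 for Srxn1, 0.14 to 0.41 for Txnrd1 and 0.32 to 0.61 for Cat at 72 h.

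Values near 0 that were not called as deposited also changed sign. For the change of the effect on Txndc9 between 24 and 72 h these were 0.046 with centred arrays, 0.043 with the mean of probe sets, 0.011 with array weights and -0.14 to 0.039 without single arrays, and for Txnrd1 between 8 and 24 h -0.047 with centred arrays. Centring subtracted 0.12 from the change of every gene between 8 and 24 h and -0.11 from that between 24 and 72 h. In control cells against 0 h, Txnrd1 at 8 h was -0.020 after quantile normalization, -1.40 with the mean of probe sets (called) and -0.0052 to 0.036 without single arrays. Txndc9 was -0.10 at 72 h with the mean of probe sets and -0.051 to 0.032 at 24 h without single arrays. Cat was 0.016 at 72 h with the mean of probe sets, 0.051 at 1 h and 0.084 at 72 h with array weights, and 0.10, 0.035 and 0.16 at 1, 24 and 72 h without the 4 arrays. Without single arrays Cat ranged from -0.23 to 0.10 at 1 h, -0.088 to 0.24 at 8 h, -0.29 to 0.03 at 24 h and -0.16 to 0.16 at 72 h, and Nqo1 from -0.13 to 0.26 at 1 h. Srxn1 at 24 h was 0.27 with array weights, 0.27 without the 4 arrays (both called) and -0.17 to 0.27 without single arrays.

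Same-numbered replicates correlated at -0.26 to 0.31 and were not treated as pairs. With the replicate number as a block, the change of the effect on Cat between 8 and 24 h passed the test (0.42, adjusted p = 0.041) and Sesn2 lost its call at 1 h. The block changed no other call of the 5 genes and gave 52, 7611, 6310 and 2890 calls at 1, 8, 24 and 72 h. A sample correlated best with its own number in 3, 3, 1 and 1 cases at these times, of 4 at all but the last, where it was 3. Srxn1's change between 8 and 24 h passed the test in a model of only the groups compared (-0.41, adjusted p = 0.0035), with centred arrays (-0.53, adjusted p = 0.035) and without the 4 arrays, and that of Cat also after quantile normalization (0.47, adjusted p = 0.047), with only the groups compared (adjusted p = 0.035), with array weights (0.33, adjusted p = 0.028) and without control 8 h replicate 1 (0.49, adjusted p = 0.047). Neither change passed the test under the other settings, except for 1 dim probe set of Srxn1 (-0.82).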
